A study of Mus musculus with 2 samples.

Results

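The 10 genes described here are tied to the braking of the cell cycle or to its permanent arrest. They include the Cip/Kip inhibitors Cdkn1a and Cdkn1b and the Ink4 inhibitors Cdkn2a, Cdkn2b, Cdkn2c and Cdkn2d. The others are the p53 gene Trp53, its antagonist Mdm2, the retinoblastoma gene Rb1 and the lamin gene Lmnb1. All 10 were picked by name from the 21938 protein-coding genes of GENCODE M21. Every annotated start site of each gene was examined, together with its gene body and the open regions within 100 kb.

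Cyclin-dependent kinases drive cells into DNA synthesis by phosphorylating the Rb protein, which otherwise holds E2F factors in check. Ink4 proteins block the cyclin D kinases Cdk4 and Cdk6, and Cip/Kip proteins bind a wider range of cyclin-kinase pairs. Stress stabilises p53, which raises Cdkn1a and also Mdm2, whose product marks p53 for degradation. In senescent cells p16Ink4a and p21 accumulate and lamin B1 is lost, and the Ink4 locus is known for rising with age in many rodent tissues. Neurons of the adult cortex do not divide, and inhibitors of both families are known to act there.

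The data are DNase-seq, in which the enzyme DNase I cuts DNA that is not wrapped tightly in nucleosomes, so that stretches of open chromatin appear as peaks of cuts. Replicate 1 and replicate 2 form 1 group: right cerebral cortex tissue of female adult B6CASTF1/J mice aged 18 to 20 months, first-generation hybrids of a C57BL/6J-type and a CAST/EiJ parent. There was no treatment, no younger group and no other control, so no value below says anything about change with age, and no test between groups was made. The labels call the libraries separate biological replicates and give the same donor identifier for both, and nothing states that they came from separate animals. Reads of both parental alleles were counted together in the files used here.

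The deposited signal of a peak took values in whole steps. Read as 1 read each, on a scale of reads per M (mega), the steps give 201 M reads in replicate 1 and 112 M in replicate 2. Counting intervals below are exact 95% Poisson intervals on that inferred count and cover counting error only. The shorter peak lists held 86601 and 88482 peaks and the longer lists 142029 and 143055. Among the 12692 genes whose promoter was open in both libraries, the median gene had a 1.41-fold higher value in replicate 2, and 93.5% of them were higher there. All 10 genes were higher in replicate 2 too, so the SD of a mean below includes that shift. Of the fixed cortical neuron markers 5 of 8 had a promoter peak in both replicates, among them Syt1 (3.77 and 3.25) and Camk2a (2.57 and 3.95), and the other 3 had one in a single library. The same count was 2 of 5 for astrocytes, 2 of 5 for oligodendrocytes, 0 of 5 for microglia, 1 of 4 for endothelium and 0 of 6 for genes of other tissues, where Alb and Apoa1 had no peak in any list. Lower openness of a site in every cell and openness in fewer of the tissue's cells cannot be told apart in such bulk samples.

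All 10 genes had an open promoter in both replicates, where a promoter reaches 500 bp to each side of a start site in the annotation and its value that of the strongest peak touching it. The same held for 57.9% of all protein-coding genes in the shorter lists and for 62.4% in the longer lists, where the count among the 10 genes was also 10. Their levels were spread widely, with a mean value of 7.15 at Cdkn2d and 0.666 at Cdkn2a. The median over the 10 genes was 1.97, against 2.71 over the 12692 genes, and 3 of the 10 lay above that overall median. The order was Cdkn2d, Mdm2, Cdkn1b, Lmnb1, Trp53, Cdkn1a, Rb1, Cdkn2c, Cdkn2b and Cdkn2a, and it was the same in each library for all 9 neighbouring pairs. The ranges of the libraries overlapped in 6 of those pairs; only Cdkn2d over Mdm2, Cdkn1a over Rb1 and Cdkn2c over Cdkn2b were free of overlap.

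**Figure D1:**
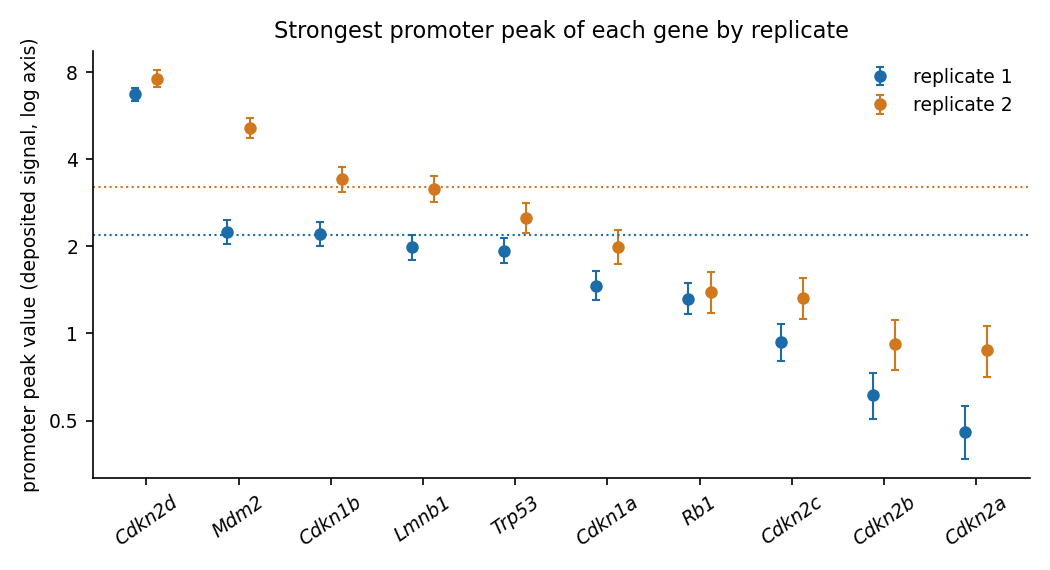
Strongest promoter peak of each gene (log axis, deposited signal) in replicate 1 (blue) and replicate 2 (orange), with exact 95% Poisson intervals on the inferred reads, and dotted lines at the median of the 12692 genes with an open promoter in both libraries (2.19 in replicate 1 and 3.2 in replicate 2). Cdkn2d stands above both lines at 6.7 and 7.59, and Cdkn2b and Cdkn2a stand at the low end, below 1 in both libraries.

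Among the Cip/Kip inhibitors, Cdkn1a encodes p21, the main p53-induced inhibitor. It has start sites in 3 places, and 1 of them was open. The start shared by Cdkn1a-201 and Cdkn1a-205 carried a peak of 1.46 in replicate 1 (294 inferred reads, interval 1.3 to 1.64) and 1.99 in replicate 2 (223 reads, 1.74 to 2.27), a mean of 1.72 ± 0.373 (SD, n = 2) at percentile 28.1 of all genes. The upstream start of Cdkn1a-202 and Cdkn1a-204, 2.79 kb away, and the internal start of Cdkn1a-203 had no peak in any of the 4 lists.

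The strongest open site of Cdkn1a lay inside the gene. An intronic region 1.75 kb downstream of the open start reached 4.35 in replicate 1 (875 reads, 4.07 to 4.65) and 5.46 in replicate 2 (612 reads, 5.03 to 5.91), at percentiles 97.5 and 97.2 among the shared regions of the whole genome. It was 2.98-fold above the gene's own promoter in replicate 1 and 2.74-fold in replicate 2, which is beyond the counting intervals in both. It held 7 footprints in replicate 1 and 6 in replicate 2, of which 6 of replicate 1's overlapped one of replicate 2. A footprint is a short run of bases protected from DNase I inside an open region, listed by the authors for each library. The widest was 46 bp in replicate 1 and 48 bp in replicate 2, starting at the same base. The promoter and the intronic region are printed to show where the protected bases lie; capitals mark bases inside a footprint of both libraries, here and in the sequences of the other genes, and each sequence is read 5′ to 3′ on the gene's strand from GRCm38.p6, leaving out annotated UTR bases. The promoter run is chr17:29093601-29093768 on the plus strand and ends 1 base before the start, and the intronic run is chr17:29095401-29095660 on the plus strand.
Cdkn1a promoter: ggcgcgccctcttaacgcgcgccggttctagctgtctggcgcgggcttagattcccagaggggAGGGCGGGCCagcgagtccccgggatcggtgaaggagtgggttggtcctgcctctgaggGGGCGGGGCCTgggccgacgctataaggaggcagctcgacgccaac
Cdkn1a intron: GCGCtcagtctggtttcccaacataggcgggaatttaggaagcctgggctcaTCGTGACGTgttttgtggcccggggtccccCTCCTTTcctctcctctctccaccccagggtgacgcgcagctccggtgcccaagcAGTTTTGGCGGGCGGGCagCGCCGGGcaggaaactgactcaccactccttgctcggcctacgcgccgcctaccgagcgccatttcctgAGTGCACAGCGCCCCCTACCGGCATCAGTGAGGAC

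In the promoter the protected runs contain GGGCGG, the box bound by SP and KLF factors, at 2 positions, each wholly inside a footprint in both replicates. In the intron GGGCGG also lies inside a footprint in both. The widest intronic footprint contains AGGGGGC on the opposite strand, a core string of the insulator protein CTCF, at chr17:29095636-29095642. That string was searched, with AGGTGGC, only after the sequence had been seen; 300 bp windows of 23.3% of all shared promoter regions and 16.5% of all other shared regions hold one of the 2 strings. AGGGGGC overlaps GGGCGG wherever GG follows it. A string match describes letters and is no evidence of binding.

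Weaker regions filled the stretch between these sites. One intronic region had 0.413 and 0.731 and another 0.666 and 0.963, and neither held a footprint in either replicate. Both lie within 500 bp of a start of AC167363.2, an annotated neighbour. Outside the gene 6 shared regions lay within 100 kb without touching any start site. The strongest, 41.7 kb upstream and nearest to the splicing factor gene Srsf3, had 1.23 in replicate 1 and 3.94 in replicate 2. The next, 73.4 kb downstream in an intron of Cpne5, had 1.04 and 2.35. The region 12.7 kb upstream lies in an intron of Trp53cor1, the gene of lincRNA-p21, a p53-induced RNA of mouse cells; it had 0.651 and 1.23.

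Cdkn1b encodes p27Kip1, an inhibitor typical of resting and differentiated cells. Its starts form 1 cluster, open at 2.21 in replicate 1 (444 reads, 2.01 to 2.42) and 3.41 in replicate 2 (382 reads, 3.07 to 3.77), a mean of 2.81 ± 0.848 (SD, n = 2) at percentile 51.8. It held 8 and 9 footprints over 520 bp. The printed run, chr6:134920221-134920400 on the plus strand, ends just before the start and holds 26 CpG dinucleotides in 180 bases. In it 28 bases lie in a footprint of both libraries. Matched footprints also lie past the start, outside the run, such as chr6:134920589-134920597 in both libraries.
Cdkn1b promoter: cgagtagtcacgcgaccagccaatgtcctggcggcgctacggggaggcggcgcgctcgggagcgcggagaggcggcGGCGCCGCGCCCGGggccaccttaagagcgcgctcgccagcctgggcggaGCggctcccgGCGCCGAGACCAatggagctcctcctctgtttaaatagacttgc
A weak region in the coding sequence, 0.698 kb from the nearest start, had 0.517 and 0.794 and no footprint. Of 9 distal regions the strongest was at 57 kb upstream, nearest to Crebl2, with 2.99 in replicate 1 and 6.46 in replicate 2, above the Cdkn1b promoter in both. The next, in the coding sequence of Apold1 63.2 kb downstream, had 2.38 and 2.97.

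**Figure D2:**
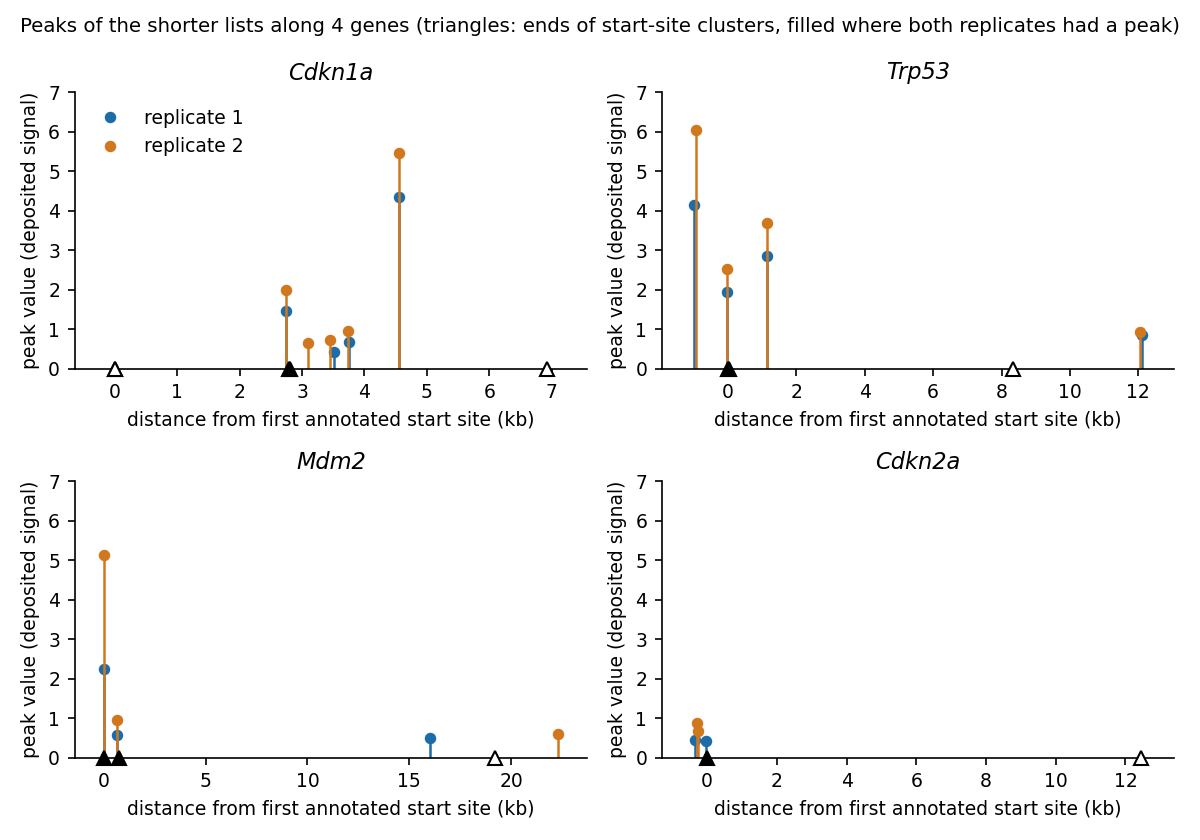
Peaks of the shorter lists in replicate 1 (blue) and replicate 2 (orange) by distance from the first annotated start site (kb) and deposited signal, for Cdkn1a, Trp53, Mdm2 and Cdkn2a; triangles mark the ends of start-site clusters, filled where both replicates had a peak and open where none of the lists had one. In Cdkn1a the tallest peak is the intronic one (4.35 and 5.46), and the tallest in the Trp53 panel (4.13 and 6.05) lies at a Wrap53 start.

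The Ink4 genes held both ends of the order. Cdkn2d, the gene of p19Ink4d, which is expressed in postmitotic neurons of mice, was the most open of the 10 genes. Its peak was 6.7 in replicate 1 (1349 reads, 6.35 to 7.07) and 7.59 in replicate 2 (851 reads, 7.09 to 8.12), a mean of 7.15 ± 0.625 (SD, n = 2) at percentile 98.3 of all genes. It held 8 footprints in replicate 1 and 7 in replicate 2, and 7 of replicate 1's overlapped one of replicate 2. These covered 174 and 145 bp of the 380 bp region, more than at any other of the promoters here. Most of the region is annotated as UTR, so the run printed is its part upstream of the first start, chr9:21291408-21291540 on the minus strand. This run lies inside the peak of replicate 2 and outside that of replicate 1, which spans chr9:21291161-21291380. In the run 58 of 133 bases lie in a footprint of both libraries.
Cdkn2d promoter: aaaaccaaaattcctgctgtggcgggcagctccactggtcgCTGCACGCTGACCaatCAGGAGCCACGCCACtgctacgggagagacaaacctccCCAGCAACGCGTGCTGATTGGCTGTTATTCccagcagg
Cdkn2d had no shared gene-body region. A strong peak just beyond its 3′ end (3.5 and 4.99) lies within 500 bp of a start of the neighbour Kri1 and was not counted for Cdkn2d. Of 7 distal regions the strongest, 70.5 kb downstream and nearest to Keap1, had 2.31 and 3.86, and the next, 49.6 kb downstream and also nearest to Keap1, had 0.999 and 2.41. None of the 7 had Cdkn2d as its nearest coding start.

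Cdkn2c, the gene of p18Ink4c, was open at the start of Cdkn2c-202, with 0.934 in replicate 1 (188 reads, 0.806 to 1.08) and 1.33 in replicate 2 (149 reads, 1.12 to 1.56), at percentile 13.8. The peak of replicate 1 was centred 358 bp past the start, inside the transcribed UTR, and with a window of 100 bp in place of 500 bp Cdkn2c was the only one of the 10 genes without a promoter peak in both replicates. The second start, that of Cdkn2c-201, 1.82 kb downstream, was the only start of the 10 genes seen in some lists and not in others. Replicate 1 had it only in the longer list at 0.253, and replicate 2 had it in both lists at 0.49. A region between the starts had 0.452 and 0.678 with no footprint. Its 3 distal regions were weak: the strongest, in an intron of Faf1 36.6 kb upstream, had 0.413 and 0.802, and the next, also in Faf1, had 0.383 and 0.767.

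Cdkn2b, the gene of p15Ink4b, and Cdkn2a, the gene of p16Ink4a and p19Arf, lie next to each other on chromosome 4 and had the lowest values. Cdkn2b had 0.611 in replicate 1 (123 reads, 0.508 to 0.729) and 0.918 in replicate 2 (103 reads, 0.75 to 1.11), a mean of 0.765 ± 0.217 (SD, n = 2) at percentile 6.02. Cdkn2a had 0.457 in replicate 1 (92 reads, 0.369 to 0.561) and 0.874 in replicate 2 (98 reads, 0.709 to 1.06), a mean of 0.666 ± 0.295 (SD, n = 2) at percentile 3.99. The counting intervals of the 2 genes overlap in each library.

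The open start of Cdkn2a was that of Cdkn2a-202, the upstream first exon, which serves the Arf product. The start of Cdkn2a-201, the first exon of p16Ink4a, lies 12.5 kb downstream and had no peak in any of the 4 lists. It also touched no interval with a false discovery rate below 0.05 in either library, whereas the Arf-side start touched one in both (lowest rates 2.68e-06 in replicate 1 and 6.11e-11 in replicate 2). The stronger peak of replicate 1 is printed here, chr4:89294921-89295100 on the minus strand, from -447 to -268 bp of the start. Of its 180 bases 8 lie in a footprint of both libraries, and it holds 21 CpG dinucleotides. The other peak of replicate 1, over the start itself (0.432), is not printed. With 92 and 98 inferred reads at this promoter, the part of depth in the few shared footprints was not tested. Over the whole 637 bp region replicate 1 had 9 footprints and replicate 2 had 3, and 2 of replicate 1's were matched.
Cdkn2a upstream promoter: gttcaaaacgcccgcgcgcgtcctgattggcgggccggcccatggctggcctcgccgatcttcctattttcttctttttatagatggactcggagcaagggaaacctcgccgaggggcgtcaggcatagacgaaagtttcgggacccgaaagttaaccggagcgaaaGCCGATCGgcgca
Neither Cdkn2a nor Cdkn2b had a shared gene-body region, and a single distal region lay within 100 kb of both. It lies in an intron of the noncoding gene Gm12609, 76.3 kb upstream of Cdkn2b and 92.6 kb upstream of Cdkn2a, with 0.915 and 1.04, above both promoters in each library. The median gene had 4 such regions, and a count of 1 stood at percentile 19.5 of all 21938 genes.

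Trp53 encodes p53. Its main start cluster was open at 1.93 in replicate 1 (389 reads, 1.75 to 2.14) and 2.51 in replicate 2 (281 reads, 2.22 to 2.82), a mean of 2.22 ± 0.405 (SD, n = 2) at percentile 39.1. The start of Wrap53, which is transcribed in the other direction, lies 104 bp from the first Trp53 start, so the peak was counted for both genes. The internal start of Trp53-204, 8.34 kb downstream, had no peak in any list. An intronic region 1.11 kb downstream of the main starts was stronger than the promoter, with 2.85 in replicate 1 (573 reads, 2.62 to 3.09) and 3.69 in replicate 2 (414 reads, 3.34 to 4.06), which is 1.47-fold the promoter in each. Both runs are printed because the promoter and the intron differ in what was protected: chr11:69580256-69580358 and chr11:69581401-69581620, both on the plus strand.
Trp53 promoter: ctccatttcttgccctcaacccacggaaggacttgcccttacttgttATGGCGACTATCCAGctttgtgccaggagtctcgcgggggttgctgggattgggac
Trp53 intron: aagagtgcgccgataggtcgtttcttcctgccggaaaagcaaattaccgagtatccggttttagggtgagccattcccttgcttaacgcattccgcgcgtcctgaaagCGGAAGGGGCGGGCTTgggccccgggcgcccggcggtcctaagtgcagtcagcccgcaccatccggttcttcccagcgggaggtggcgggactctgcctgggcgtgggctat
In the promoter the shared protected bases are 15 of 103 and hold none of the strings searched. In the intron they are 16 of 220 and contain GGGCGG. The p53 half-site, searched by its consensus, occurs once in the promoter run, outside any footprint.

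Another strong peak, centred at -978 bp from the first Trp53 start (4.13 and 6.05), lies in an intron of Wrap53 within 500 bp of another Wrap53 start, and was not counted for Trp53. With a promoter window of 2000 bp it becomes the value of Trp53, 5.09, and the intronic region likewise becomes the value of Cdkn1a, 4.9; the other 8 genes keep theirs within 1 SD. Trp53 had 11 distal regions, the most of the 10 genes, at percentile 96.5 of all 21938 genes; 1 of them had Trp53 as its nearest coding start. The strongest were 94.3 kb downstream near Senp3, with 1.21 and 2.16, and 33.8 kb upstream in an intron of Dnah2, with 1.2 and 2.02.

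Mdm2, the ubiquitin ligase gene that p53 activates, showed the largest difference between the libraries. Its strongest promoter peak was 2.25 in replicate 1 (452 reads, 2.04 to 2.46) and 5.13 in replicate 2 (575 reads, 4.72 to 5.56), a mean of 3.69 ± 2.04 (SD, n = 2). Centred on the median over all genes, replicate 1 lay 0.69 below replicate 2 on the log2 scale (centred difference -0.69), at percentile 3 of all genes, while the counting error of that log2 difference was 0.09. With 1 library on each side no test is possible. The rank of Mdm2 among the 10 genes was second in both libraries all the same.

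Mdm2 is known for a pair of promoters: an upstream one used at a basal level and one within the first intron that p53 acts on. Its 7 annotated start sites at the upstream end were joined into 1 cluster, but the peaks in it were separate. The strong peak lay at the upstream starts. A second peak, centred 616 bp downstream of the first start in replicate 1 and covering the start of Mdm2-206, had 0.567 in replicate 1 (114 reads, 0.467 to 0.681) and 0.945 in replicate 2 (106 reads, 0.774 to 1.14). The upstream peak held 4 and 6 footprints, all 4 of replicate 1's matched, and the downstream peak held 0 and 1. The downstream peak rested on fewer inferred reads, 114 and 106 against 452 and 575. The part of depth in the footprint counts was not tested. The runs are printed side by side for the contrast in footprints, chr10:117710759-117710940 for the upstream peak and chr10:117710043-117710240 for the downstream one, both on the minus strand. The upstream run holds GGGCGG and CCGGAAG, an ETS box, inside footprints of both libraries. Both lie on the opposite strand and so are printed as CCGCCC and CTTCCGG. Another GGGCGG, on the printed strand at chr10:117710857-117710862, had no footprint on it in either library. The downstream run also holds CCGGAAG on the opposite strand, with no footprint on it.
Mdm2 upstream promoter: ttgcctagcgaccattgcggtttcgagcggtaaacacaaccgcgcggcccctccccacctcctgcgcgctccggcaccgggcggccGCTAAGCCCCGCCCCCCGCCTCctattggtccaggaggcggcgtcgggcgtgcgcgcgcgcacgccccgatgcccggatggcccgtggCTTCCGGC
Mdm2 intronic promoter: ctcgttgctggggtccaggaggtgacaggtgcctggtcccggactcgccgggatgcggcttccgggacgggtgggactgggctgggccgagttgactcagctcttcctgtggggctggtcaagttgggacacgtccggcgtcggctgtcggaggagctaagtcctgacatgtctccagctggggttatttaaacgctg
The start of Mdm2-204, 19.2 kb downstream, had no peak in any list. There was no shared gene-body region. Of 5 distal regions the strongest lay in an intron of Cpm, 44.2 kb downstream (1.25 and 1.73), and 87.2 kb downstream (1.43 and 1.52), also nearest to Cpm.

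Rb1, the gene of the retinoblastoma protein, had 1.32 in replicate 1 (266 reads, 1.17 to 1.49) and 1.39 in replicate 2 (156 reads, 1.18 to 1.63), a mean of 1.36 ± 0.0487 (SD, n = 2) at percentile 19.1. Before centring it differed least of the 10 genes between the libraries (-0.07 on the log2 scale, replicate 1 minus replicate 2). Centred on the median over all genes, replicate 1 lay 0.42 above replicate 2, at percentile 90.2, with a counting error of 0.15. The value was low although its promoter has the highest CpG ratio of the 21 start-site clusters, 1.03 observed over expected. Rb1 is the longest of the 10 genes, at 142 kb, and its 4 internal starts, 38.1 to 123 kb into the gene, had no peak in any list. Of 3 gene-body regions the strongest, in an intron 15.7 kb from the nearest start, had 0.542 and 1.21, and the next had 0.591 and 0.794. The weakest, with 0.388 and 0.606, lies at a start site of Lpar6, a receptor gene nested in an Rb1 intron, and was counted because gene-body regions keep clear only of the gene's own starts. Its 2 distal regions had 1.57 and 2.95 (in an intron of Itm2b, 57.2 kb upstream) and 1.18 and 1.13 (86.2 kb downstream, nearest to Rcbtb2).

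Lmnb1 encodes lamin B1 of the nuclear lamina and lies on chromosome 18. Its main start was open at 1.99 in replicate 1 (400 reads, 1.8 to 2.19) and 3.16 in replicate 2 (354 reads, 2.84 to 3.5), a mean of 2.57 ± 0.826 (SD, n = 2) at percentile 47.2. The E-box CACGTG lay wholly inside a footprint in both libraries, at -65 bp from the start. A second region in the window, over the first coding exon, had 0.452 and 1.04 with no footprint. The internal start of Lmnb1-202 was closed in all lists, but an intronic region 0.991 kb before it had 0.572 in replicate 1 and 1.81 in replicate 2, with 2 footprints in each. The other gene-body region had 0.512 and 0.811. The strongest of 4 distal regions, 86.7 kb downstream near March3, had 1.07 and 1.04, and the next, 85.3 kb upstream near Tex43, had 0.686 and 1.07.

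**Figure D3:**
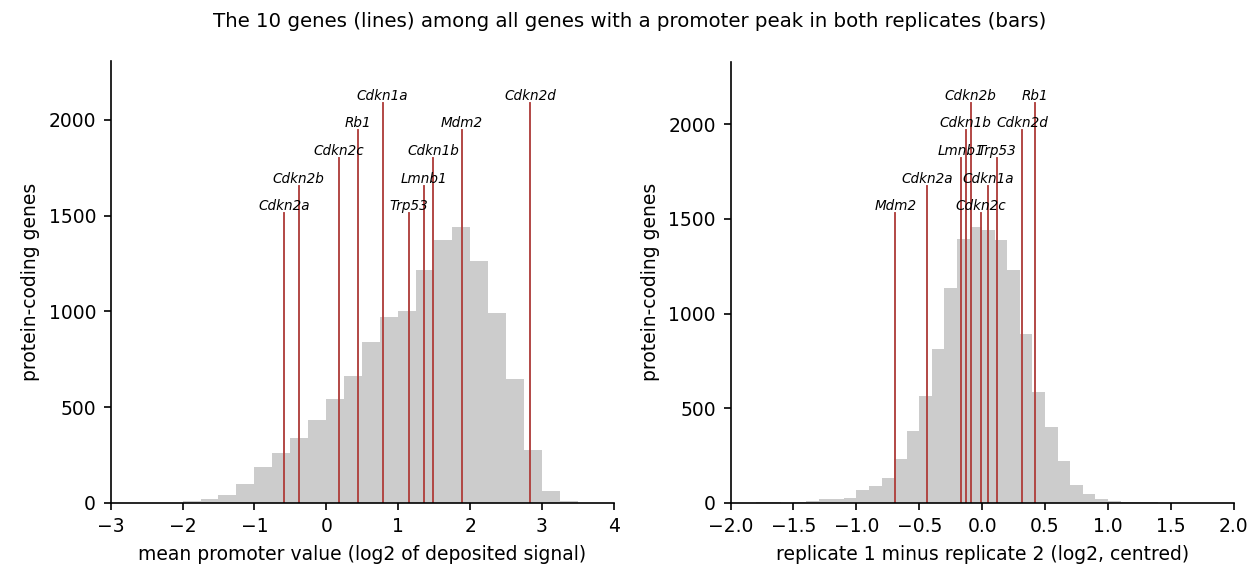
The 10 genes (red lines) on histograms of the 12692 protein-coding genes whose promoter was open in both libraries: mean promoter value on the log2 scale (left) and the log2 difference of replicate 1 minus replicate 2, centred on the median over all genes (right). On the left the 10 genes reach from percentile 3.99 (Cdkn2a) to 98.3 (Cdkn2d); on the right Mdm2 lies lowest (-0.69) and Rb1 highest (0.42).

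Across the 10 genes the start sites formed 21 clusters, joining sites of a gene at most 500 bp apart. A peak in both replicates was found at 10 clusters, 1 for each gene, against 29.1% of all clusters of protein-coding genes. Another 10 had no peak in any of the 4 lists, against 62% of all clusters, and the remaining one was the second start of Cdkn2c. Every open cluster holds a transcript annotated as protein-coding. Of the closed ones only those of Cdkn2a-201, Cdkn1a-202 and Cdkn1a-203 do. The closed starts of Mdm2, Trp53, Lmnb1 and Rb1 belong to retained-intron or processed transcripts. Open and closed clusters thus differ in transcript type, and its part in the contrasts below was not tested. Of the 7 genes with several clusters all 7 had exactly 1 open in both, against 76.4% of comparable genes, and 6 had at least 1 without a peak in any list, against 89.4%. The open and closed clusters of the 10 genes did not overlap in CpG content: the CpG ratio had a median of 0.83 (0.545 to 1.03) at the open ones and 0.312 (0.127 to 0.537) at the closed ones. Over all protein-coding clusters the medians were 0.722 and 0.218, and both groups ranged from 0 to 1.23. Among the 10 genes the nearest values were those of Trp53, whose open start had 0.545, and of the p16Ink4a start of Cdkn2a, which at 0.537 had the highest ratio of the closed ones.

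**Figure D4:**
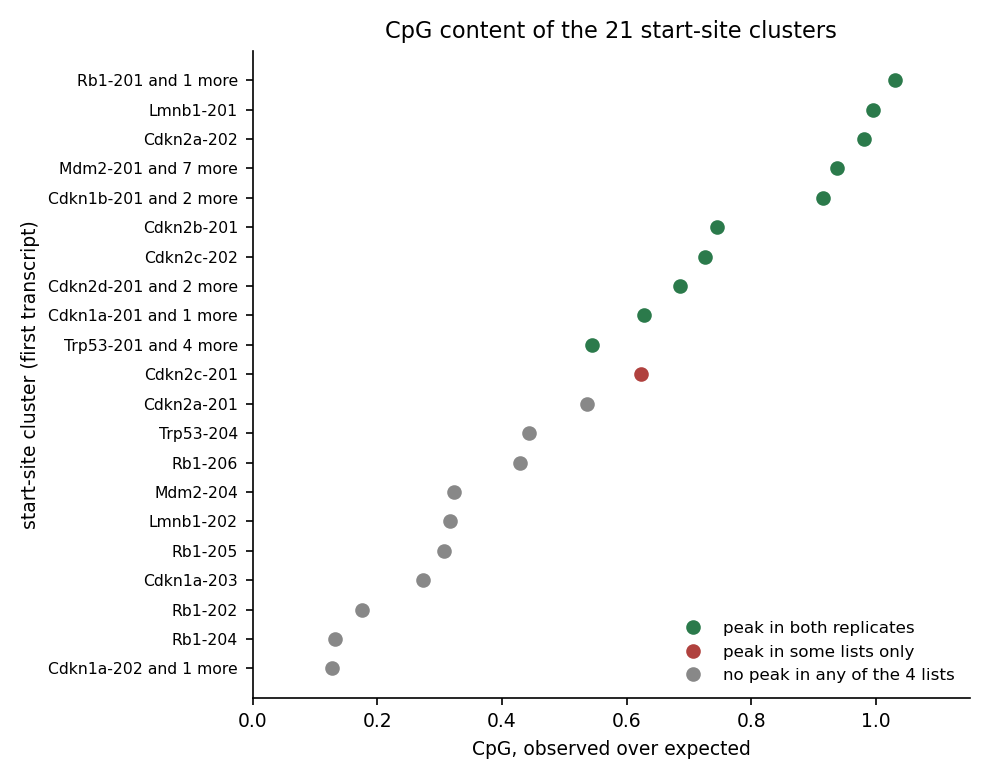
CpG ratio (observed over expected, in the 500 bp on either side of the cluster's midpoint) of the 21 start-site clusters, with those open in both replicates above (green), the second Cdkn2c start between (red) and those without a peak in any list below (grey). The green points reach down to 0.545 at Trp53 and the grey ones up to 0.537 at Cdkn2a-201.

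Shared gene-body regions, which keep 500 bp away from the gene's own starts, were present in 6 of the 10 genes, against 36.6% of all protein-coding genes, and numbered 11 in all. In 2 of these 6 genes, Cdkn1a and Trp53, the strongest one exceeded the promoter in both replicates, against 21.1% of comparable genes. In the other 4 it reached between 0.233 (Cdkn1b, replicate 2) and 0.872 (Rb1, replicate 2) of the promoter's value. At least 1 distal region was present at all 10 genes, against 86.1% of all genes. The 48 distinct distal regions included 10 for which one of the 10 genes had the nearest protein-coding start, and these were weak, with means from 0.263 (Cdkn2c) to 1.03 (Cdkn1a). Distance alone ties the others to these genes.

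**Figure D5:**
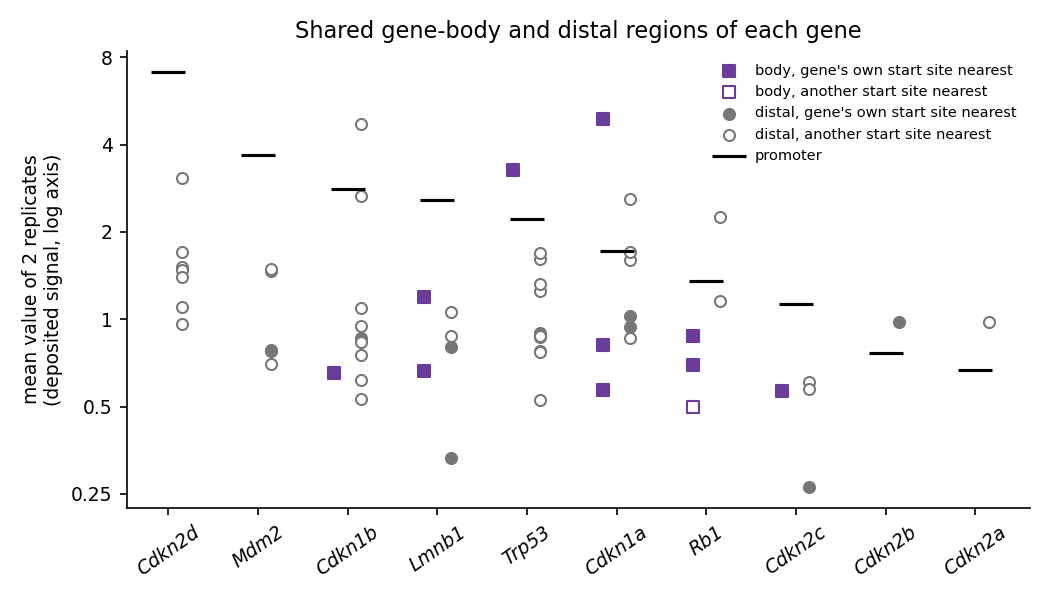
Mean value over the 2 replicates (deposited signal, log axis) of each shared gene-body region (squares) and distal region (circles) of the 10 genes, filled where the gene's own start site is the nearest protein-coding one, with the promoter as a black bar. Squares lie above the bar in Cdkn1a (4.9 against 1.72) and Trp53 (3.27 against 2.22).

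The promoters of the 10 genes comprised 12 shared regions and held 58 footprints in replicate 1 and 58 in replicate 2, or 11.2 per kb in each, against 12.8 and 13.3 per kb over all promoter regions. Of those in replicate 1, 51.7% overlapped one of replicate 2, against 64.2% over all promoter regions. Matching differed between the promoters: 7 of 8 at Cdkn2d, 4 of 4 at the upstream peak of Mdm2, 2 of 9 at Cdkn2a and 1 of 8 at Rb1. Inferred reads in replicates 1 and 2 differed too: 1349 and 851 at Cdkn2d, 452 and 575 at Mdm2. They were 92 and 98 at Cdkn2a and 266 and 156 at Rb1. At the main Lmnb1 promoter region, with 400 and 354 reads, 2 of 6 were matched. The part of depth in the matching was not tested. GGGCGG was present in 300 bp windows of 9 of the 12 regions (75%), against 63.3% of all promoter regions. Of its 25 occurrences 10 touched a footprint in both libraries. That share was not computed over all promoter regions, so it cannot be called high or low. The complete p53 element, 2 half-sites at most 13 bp apart, was found in none of the 12 windows, and in 0.0118% of all. Every base of a half-site had to match the consensus, so sites with a mismatch were missed. A search this strict cannot show that p53 sites are absent from these promoters. A single p53 half-site was found in 3 of the 12, at Cdkn2d, Lmnb1 and Trp53, against 6.69% of all. The one at Cdkn2d, chr9:21291302-21291311, overlapped a footprint in both libraries only at its edge. That footprint was chr9:21291296-21291302 in each library, so it shared only base 21291302 with the half-site. The half-sites at Lmnb1 and Trp53 overlapped none. The E2F strings TTTGGCGC and TTTCCCGC were found in 1 of the 12, at Rb1, against 2.9% of all.

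The pathway around the 10 genes was described with lists chosen with earlier results of these data known, by how many promoters were open in both libraries, against the 57.9% of all genes, and by the median value of those genes, against 2.71. Of 10 p53 regulators 8 had one, with a median of 3.11. Atm, the kinase that signals DNA breaks, had 7.02 and 6.71, and its target kinase Chek2 had 4.6 and 5.83. Neither Trp63 nor Trp73, the relatives of Trp53, had a peak in any list. Of 18 p53 target genes 17 had one, with a median of 3.61. Ddit4, an inhibitor of mTOR signalling, had 5.63 and 6.85, and Trp53inp1, a stress-induced autophagy gene, had 4.25 and 6.21, both above the promoter of Cdkn1a in each library. Eda2r, a receptor gene on the X chromosome, had none.

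Most genes of the lists of G1 genes, Rb1 relatives and E2F genes, Ink4 regulators and lamina genes were open as well. Of 9 genes of G1 cyclins and kinases 8 had a promoter peak in both replicates, with a median of 2.52. Ccne1, the gene of cyclin E1, had 5.28 and 6.51, and Cdk4, the kinase that Ink4 proteins bind, had 4.5 and 6.02. All 12 relatives of Rb1 and E2F genes had one, with a median of 2.68, led by E2f3 (6.66 and 6.76) and Rbl2 (4.24 and 5.48). Of 14 regulators of the Ink4 locus, mostly Polycomb genes, 12 had one, with a median of 2.71. Cbx8, a Polycomb subunit, had 6.38 and 7.63, and the AP-1 gene Jund had 4.96 and 6.83. All 8 other lamina genes had one, with a median of 3.53, led by Sun1 (4.76 and 5.97) and Tmpo (3.46 and 5.39).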

How the data were processed

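DNase-seq of right cerebral cortex was analysed from 2 libraries of 1 group, replicate 1 and replicate 2. Per the deposited descriptions, the authors derived the peak lists from filtered alignments in mm10 and the footprints from alignments and intervals with a false discovery rate; aligner and peak caller: not given in the sources used here. Each peak's value is the authors' deposited signal, of unstated normalization. Peak values below 2000 steps, which were the ones checked, are whole multiples of 1 step (0.00497 in replicate 1 and 0.00892 in replicate 2, within 0.05 steps), from which the depth was inferred; no file states it. Intervals come with an FDR (q-value) each and the footprint lists a constant p-value threshold of 0.01, as deposited by the authors.

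Genes and start sites came from GENCODE M21 and the sequence from GRCm38.p6, which is the mm10 assembly. The shorter peak list of each library was used, with the longer one as an alternative. Peaks of both libraries that overlapped by at least 1 bp were merged, and a region with a peak of each was called shared (65097 of 106187). A peak close to start sites of neighbouring genes counts for each of them. A percentile is the rank among protein-coding genes whose promoter was open in both libraries, among shared regions for a region's value, and among all 21938 protein-coding genes for a count of gene-body or distal regions. Strings were searched on both strands in 300 bp windows around the strongest peak of a region, with no mismatch to the string or consensus allowed. Across shared regions the libraries had Pearson's r of 0.87 and Spearman's rho of 0.842, over regions of 1 pair of libraries, and no peak was identical in both. With 1 group no test was made. Scripts were tested on simulated peaks. Python 3.11.15, numpy 2.4.6, pandas 2.3.3 and scipy 1.17.1 were used.

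The genes, the lists, the regions and the alternatives were chosen with earlier results of these data known. All 10 genes are named; from each list the 2 genes with the highest mean promoter value and up to 2 without a promoter peak are named; of gene-body and distal regions the 2 strongest of each gene are described, and a few others were added after their values were seen. The descriptive text files were not used.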

Additional observations from a re-analysis of the deposited data

How the results depend on the processing

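The count of 10 genes with a promoter peak in both replicates was also 10 with the longer list, with a window of 2000 bp and in each library alone; it was 9 with a window of 100 bp (Cdkn2c was lost) and 8 with the stronger 50% of peaks (Cdkn2a and Cdkn2b were lost). The median promoter value of 1.97 was 2.69 with a window of 2000 bp, through Trp53 and Cdkn1a, and 1.7 to 2.25 when 1 replicate was left out (1.7 without replicate 2). The median centred log2 difference of -0.05 lay between -0.11 and -0.05 under its alternatives. The 11 shared gene-body regions became 12 with the longer list, 10 with a required overlap of 50% of the shorter peak, 2 with the stronger 50% of peaks, 2 with a start-site exclusion of 2000 bp, and 16 to 17 in a single library. The 48 distal regions became 86 with the longer list, 22 with the stronger 50% of peaks, 23 within 50 kb, 10 where one of the 10 genes had the nearest start, 35 with the exclusion of 2000 bp, and 58 to 75 in a single library (75 without replicate 1). The 58 footprints became 29.5 on average where a footprint had to be matched in the other library, and 50 to 57 in a single library. The distal count thus moved with the list and with peak strength, and the gene-body count with peak strength and the start-site exclusion; the cause was not tested. No paired analysis was possible because the libraries form 1 group. The lowest promoter values, those of Cdkn2a and Cdkn2b, rested on 92 to 123 inferred reads. These reads are the value divided by the step, so they restate the value, and the part of depth was not tested.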

Other observations

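Genes of factors that senescent cells secrete and genes of proliferation were open to different degrees. Of 18 secreted factors of senescent cells 6 had an open promoter in both libraries (33.3%, against 57.9% of all protein-coding genes), with a median value of 1.47, and 9 had none in either replicate. Il6, the gene of an inflammatory cytokine, had 1.96 and 3.14, and Igfbp3, the gene of a binding protein of insulin-like growth factors, had 1.71 and 2.6. Ccl8 and Gdf15 had no peak in any list. All 15 proliferation genes had an open promoter in both replicates, with a median of 2.67, in a tissue whose neurons do not divide. Mcm5, a subunit of the replicative helicase, had 5.67 and 6.99, and Pcna, the sliding clamp of DNA polymerase, had 4.43 and 4.95. An open promoter does not say that a gene is transcribed, and no RNA was measured in these samples. The share of non-neuronal markers with a promoter peak was low in the same libraries, with 0 of 5 for microglia, and its part in the low share of the secreted factors was not tested.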
